A study of Mus musculus with 8 samples.

Results

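Small nucleolar RNAs (snoRNAs) were read in erythroid progenitors of the mouse fetal liver, the cells that divide and mature into red cells. The set holds the 209 genes with the GENCODE biotype snoRNA that were matched by Ensembl ID and had at least 10 raw counts summed over the 8 libraries, out of 37620 gene IDs in the files. Members were thus chosen by their summed counts, so the size of a total is a description of the set and not a result. By symbol, 45 of the 209 are C/D box genes (Snord), 26 are H/ACA box genes (Snora) and 138 carry other symbols, 130 of them predicted genes (Gm).

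Cells of C57BL/6 embryos at stage E14.5 were enriched by magnetic sorting, transduced, and kept for 24 h with erythropoietin, the hormone that drives red cell formation. All 6 groups share this strain, stage and culture. Knockdown of Bloodlinc, a long non-coding RNA transcribed beside the red cell anion exchanger gene Slc4a1, comprised 2 libraries with 2 different hairpins and 1 library with a control hairpin. Knockdown of hnRNPU, a nuclear RNA-binding protein, had the same layout with a control hairpin library of its own, and overexpression comprised 1 Bloodlinc vector library and 1 empty vector library. The 2 hairpins of a target differ in sequence and were treated as replicates of a knockdown. The labels do not say whether libraries came from separate embryos or cultures, or whether livers were pooled, so that p-values cover only the spread between these libraries.

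C/D box snoRNAs pair with ribosomal RNA and guide methylation of its riboses by fibrillarin, whereas H/ACA box snoRNAs guide the conversion of uridine to pseudouridine by dyskerin. A few members serve other steps: U3 (Rnu3a), U8 (Snord118), U13 (Snord13), U14 (Snord14a) and U17 (Snora73a and Snora73b) take part in the cleavage of the ribosomal RNA precursor. Most vertebrate snoRNAs are cut out of the introns of host genes, many of which encode ribosomal or nucleolar proteins. U3 is an exception, with genes and promoters of its own.

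The class names were checked against the sequences that GENCODE M21 gives for these genes. A C box (TGATGA, sense strand, within the first 25 bases) and a D box (CTGA, within the last 20 bases) were both present in 29 of the 45 Snord genes (64.4%), in 0 of the 26 Snora genes and in 113 of all 1192 snoRNA entries of the files (9.48%). An ACA within the last 8 bases was present in 26 of the 26 Snora genes, 6 of the 45 Snord genes and 639 of the 1192 entries (53.6%). Of the 138 members with other symbols, 29 held both C and D boxes and 81 held the terminal ACA. Median lengths were 79 bases for Snord, 134.5 for Snora and 131 for the others.

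The 2 C/D sequences below belong to Snord members whose levels separated the libraries most, with the C and D boxes in capitals. They are given 5′ to 3′ as GENCODE transcripts (GRCm38), with T for U.
Snord49a: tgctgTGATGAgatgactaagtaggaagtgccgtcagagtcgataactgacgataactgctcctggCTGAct
Snord82: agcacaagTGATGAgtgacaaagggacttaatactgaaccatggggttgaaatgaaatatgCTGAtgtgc
Snord49a lies at chr11:62603450-62603521 on the plus strand within 2410006H16Rik and Snord82 at chr1:86356261-86356330 on the minus strand within Ncl.

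U3 is shown because it supplied most snoRNA counts in some libraries. Its C box motif starts at base 156, outside the search window, after the long 5′ domain of U3, and its symbol places it among the members with other names. Capitals mark the motifs. It lies at chr10:40258467-40258680 on the plus strand.
Rnu3a: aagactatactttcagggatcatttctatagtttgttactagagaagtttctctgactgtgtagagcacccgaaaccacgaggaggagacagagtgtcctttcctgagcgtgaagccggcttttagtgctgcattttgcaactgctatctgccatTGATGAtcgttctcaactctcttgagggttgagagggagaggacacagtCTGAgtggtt

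The 2 copies of U17 are shown because they moved in opposite directions between libraries. They differ at 7 of 205 aligned bases (96.6% identical), and capitals mark those bases. Both lie within Snhg3 on the minus strand of chromosome 4, Snora73a at chr4:132352775-132352979 and Snora73b at chr4:132352322-132352526.
Snora73a: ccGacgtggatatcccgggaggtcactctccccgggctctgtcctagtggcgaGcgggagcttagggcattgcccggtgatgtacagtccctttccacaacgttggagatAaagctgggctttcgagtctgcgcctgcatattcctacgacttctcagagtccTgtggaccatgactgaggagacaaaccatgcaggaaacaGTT
Snora73b: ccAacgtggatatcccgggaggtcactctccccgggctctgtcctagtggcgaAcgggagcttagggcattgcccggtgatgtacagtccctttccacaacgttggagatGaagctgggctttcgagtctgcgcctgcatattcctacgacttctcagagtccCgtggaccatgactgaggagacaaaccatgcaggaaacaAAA

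The next sequences belong to 3 H/ACA members whose levels also separated the libraries, with the terminal ACA in capitals. Snora78 lies at chr17:24719676-24719803 (minus strand, within Snhg9), Snora28 at chr12:111540941-111541067 (plus strand, within Eif5) and Snora23 at chr7:110046364-110046547 (plus strand, within Ipo7).
Snora78: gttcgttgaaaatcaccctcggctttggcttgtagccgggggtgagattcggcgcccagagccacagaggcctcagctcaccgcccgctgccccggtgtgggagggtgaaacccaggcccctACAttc
Snora28: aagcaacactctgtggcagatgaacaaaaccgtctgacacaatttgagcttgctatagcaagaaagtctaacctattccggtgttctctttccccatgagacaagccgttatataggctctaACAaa
Snora23: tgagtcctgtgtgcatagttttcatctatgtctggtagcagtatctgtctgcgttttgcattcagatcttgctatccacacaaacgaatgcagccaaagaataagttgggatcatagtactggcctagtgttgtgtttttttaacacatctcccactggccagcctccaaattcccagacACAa

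A pair of predicted snoRNA genes with other symbols is shown for the same reason as U17: near copies with opposite levels. Gm25117 (chr10:111481493-111481636, plus strand, within Nap1l1) and Gm24727 (chr8:33691801-33691944, plus strand, within Gsr) differ at 16 of 144 aligned bases (88.9% identical), which are in capitals.
Gm25117: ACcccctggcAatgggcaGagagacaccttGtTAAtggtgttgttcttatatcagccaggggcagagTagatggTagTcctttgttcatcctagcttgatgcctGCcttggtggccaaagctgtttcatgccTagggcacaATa
Gm24727: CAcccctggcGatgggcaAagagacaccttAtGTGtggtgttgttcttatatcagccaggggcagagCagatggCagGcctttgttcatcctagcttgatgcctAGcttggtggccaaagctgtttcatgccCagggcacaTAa

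In 6 of the 8 libraries there were 23682993 to 34540691 counts in genes. The 2 hnRNPU hairpin libraries held 2931627 and 2612916, with 89.7% and 86.6% of their uniquely placed counts outside genes against 21.7% to 30.1% in the others. The 3 Bloodlinc hairpin-series libraries (the control hairpin and both Bloodlinc hairpins) stood apart from the other 5 libraries over snoRNAs, as described first. Bloodlinc levels were 4.46 CPM (counts scaled to library size) in the Bloodlinc-series control and 2.19 and 1.75 CPM under its hairpins, and 1.26 CPM with the empty vector and 5.46 CPM with the Bloodlinc vector. Hnrnpu levels were 588 CPM in the hnRNPU-series control, then 325 and 373 CPM under the 2 hairpins. Neither target passed the test in its knockdown (adjusted p = 1 for Bloodlinc and 0.730 for Hnrnpu).

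The members spanned a wide range. The median total was 122 counts over the 8 libraries and the highest was 751477 (Rnu3a). Just inside the rule, 7 members had 10 to 12 counts, and just outside it 21 genes had 7 to 9. A further 747 of the 1192 matched snoRNA genes had 0 counts in every library. Of the 209 members, 167 passed the filter on low counts and were tested (39 C/D, 22 H/ACA and 106 others), and 42 were not. The rule itself can select members from one set of libraries: 26 members had fewer than 10 counts over the 5 libraries outside the Bloodlinc hairpin series, and 44 had fewer than 10 counts within it.

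Summed over the 209 members, snoRNAs took 1.46%, 1.29% and 0.918% of gene counts in the Bloodlinc-series control, hairpin 1 and hairpin 2 libraries. In the other 5 libraries the share lay between 0.094% and 0.181%. The 2 sets of libraries did not overlap. U3 carried most of this gap: Rnu3a supplied 79.5%, 82.9% and 79.9% of the members' counts in the Bloodlinc series, where it had 276304, 252389 and 196151 counts. In the empty vector, Bloodlinc vector, hnRNPU-series control, hnRNPU hairpin 1 and hnRNPU hairpin 2 libraries it had 5328, 7640, 12773, 487 and 405 counts. Without Rnu3a, the members still took 0.299%, 0.22% and 0.184% of gene counts in the Bloodlinc series, against 0.0772% to 0.143% elsewhere.

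**Figure D1:**
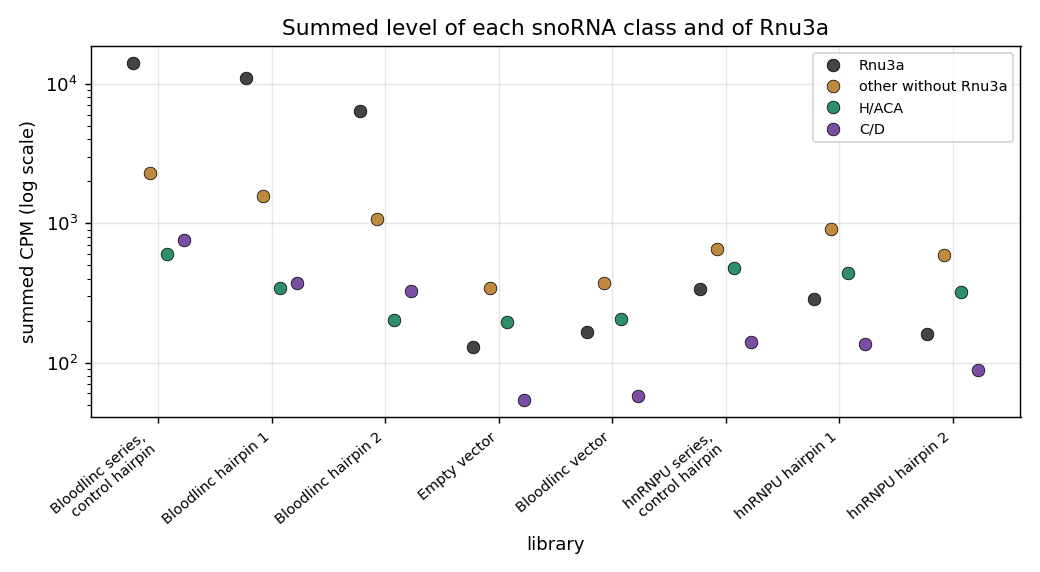
Summed CPM on a log scale (vertical axis) of Rnu3a, of the other members without a Snord or Snora symbol, of the H/ACA members and of the C/D members, as 1 point each per library (horizontal axis). Rnu3a lies at 6358 to 14161 CPM in the 3 Bloodlinc-series libraries and at 129 to 335 CPM in the other 5.

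By class, the C/D members summed to 761, 370 and 325 CPM in the Bloodlinc series and to 53.7, 57.4, 141, 136 and 88.6 CPM in the other 5 libraries, in the same order as above. Snord49a supplied 58.9%, 47.2% and 48.1% of the C/D counts in the Bloodlinc series. The H/ACA members summed to 605, 341 and 203 CPM in the Bloodlinc series and to 195, 204, 475, 437 and 319 CPM elsewhere, so the 2 sets overlapped for this class. Which H/ACA member led did change: Snora73a was the most abundant in each Bloodlinc-series library, Snora74a in both vector libraries and Snora73b in the 3 hnRNPU-series libraries.

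Per kilobase of annotated length, U3 had the highest level in all 3 control libraries. It stood at 66175 CPM per kb in the Bloodlinc-series control, 602 with the empty vector and 1566 in the hnRNPU-series control. Behind it the order differed between controls. Gm25117 (7289), Snord49a (6225) and Snord82 (2218) followed in the Bloodlinc-series control. With the empty vector the next were Scarna10, a guide RNA of the Cajal body (416), Snora74a (397) and Snora73b (331), and in the hnRNPU-series control Snora73b (1464), Scarna10 (875) and Snora74a (537). Among C/D members, Snord17, a methylation guide for the large ribosomal subunit, led in the latter 2 controls with 67.2 and 422 CPM per kb and was the third in the Bloodlinc-series control with 311.

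Rank orders of the 167 tested members were alike within the Bloodlinc series and less alike across it. Spearman's rho over log CPM was 0.914 for each of the 3 pairs within the series, 0.373 to 0.548 for the 15 pairs between a series library and one of the other 5, and 0.657 to 0.975 within those 5. Over all 15355 tested genes the corresponding values were 0.964 to 0.980, 0.829 to 0.939 and 0.881 to 0.995. These are descriptions across genes, which are not independent replicates, and libraries of unequal depth.

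Of the 167 tested members, 51 (30.5%) were higher in each of the 3 Bloodlinc-series libraries than in any of the other 5, where 15.8% of all genes were. Another 20 (12%) were lower in each, against 14.7% of all genes. By class, 12 C/D, 7 H/ACA and 32 other members were higher throughout, and 2, 4 and 14 were lower throughout. Among the 167 are members that met the count rule through a single set of libraries and so had to differ. Only 140 had at least 10 counts in both sets, so these tallies describe the set.

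A contrast of the single Bloodlinc-series control library with the mean of the other 2 control libraries (empty vector and hnRNPU-series control) compared cells that carry no knockdown or overexpression. This contrast was added after the values had been seen. With edgeR, 26 members rose and 7 fell in the Bloodlinc-series control (15.6% and 4.19% of the 167), where 3.73% of all genes rose and 4.22% fell, 7.95% in all. DESeq2 called 18 higher and 7 lower. These tallies include members that entered the set through one set of libraries alone, which had to differ, and so describe the set. Of the 140 tested members with at least 10 counts in both the 3 Bloodlinc-series libraries and the other 5, 21 rose (15%) and 7 fell (5%), where 3.94% and 4.27% of all genes that met the same minimum did, a minimum likewise added after the values had been seen. By class, among these 140, 5 of 31 C/D members rose and 0 fell. Of 20 H/ACA members 2 rose and 3 fell, and of 89 others 14 rose and 4 fell. Over all 167 tested members, including those that had to differ, 6 of 39 C/D members rose and 0 fell. Of the 22 H/ACA members 2 rose and 3 fell, and of the 106 others 18 rose and 4 fell. Of C/D members, 1 was lower at an unadjusted p below 0.05. The median log2 difference was 0.68 for C/D, 1.13 for H/ACA and 0.67 for other members, and -0.15 over all genes. Each control is 1 library, whose spread was taken from the hairpin pairs, and the contrast compares these libraries, whose series and control cannot be told apart.

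**Figure D2:**
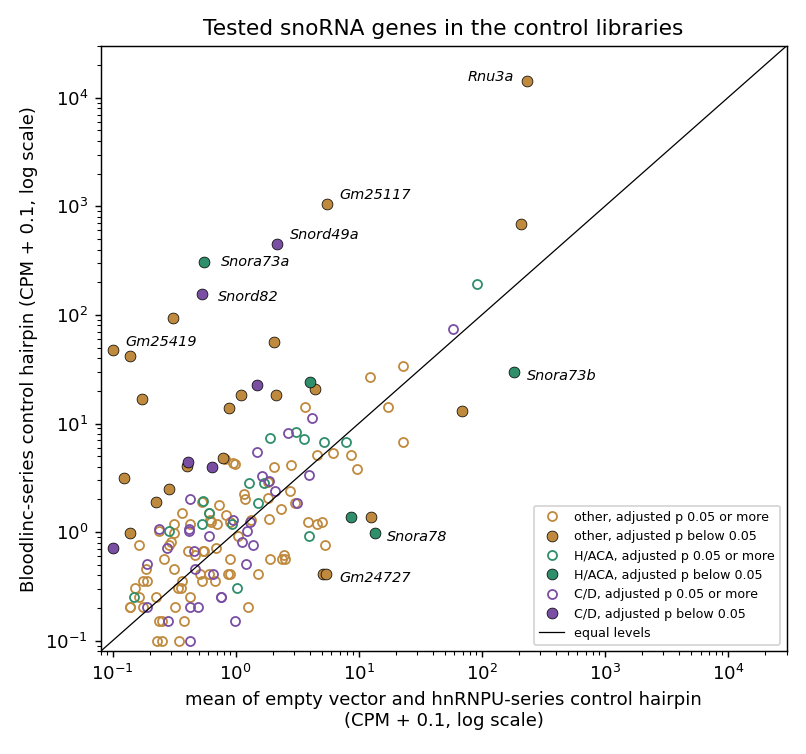
CPM + 0.1 of the 167 tested members in the Bloodlinc-series control library (vertical axis) against the mean of the other 2 control libraries (horizontal axis), both on log scales; each point is a gene, colours are classes, and filled points had an adjusted p below 0.05. The 26 filled points above the line of equal levels and the 7 below it are the members that rose and fell.

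Rnu3a was at 14161, 11063 and 6358 CPM in the Bloodlinc series and at 129, 167, 335, 288 and 160 CPM in the other 5 libraries, a log2 difference between controls of 6.09 (SE 0.74, adjusted p = 1.45e-12). Its 5 near copies among the members, all predicted genes, are each at least 80.9% identical to Rnu3a or another copy by local alignment. Of these, Gm25203 and Gm24826 rose, with 19 and 79 counts over the 5 libraries outside the series. Gm22865, Gm23927 and Gm25419 had 8, 2 and 0 counts there and met the count rule only through the Bloodlinc series, so that their levels are a description. Gm25203 was at 93.9, 73.9 and 49.5 CPM in the Bloodlinc series and at 0.591 CPM or less in the others. Gm22865 showed the same separation, with 42.1, 36.6 and 23.3 CPM against 0.591 CPM or less. Gm25419 had 926, 886 and 754 counts in the Bloodlinc series and 0 counts in each of the other 5 libraries. Measured against 3 counts over the other 2 controls, it was at least 1260-fold higher in the Bloodlinc-series control. Counting reads for copies this alike is uncertain, since reads placed at several sites are set apart in the files and numbered 33959690 to 54392560 per library.

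Of the other cleavage snoRNAs, the 3 with a Snord symbol did not pass in the control contrast. U8 (Snord118) was at 3.18, 1.58 and 3.82 CPM in the Bloodlinc series and at 0.591 to 1.78 CPM in the others, and its contrast did not pass (log2 difference 1.07, SE 0.89, adjusted p = 0.519). The U8 groups overlapped at the low end. U13 (Snord13) was at 0.131 to 0.194 CPM in the Bloodlinc series and at 0.394 to 2.36 CPM elsewhere, without overlap and in the reverse direction (adjusted p = 0.479). It had only 3, 3 and 6 counts in the series and 19, 32, 33, 4 and 1 in the others. Its separation from hnRNPU hairpin 2 thus rests on 1 count. U14 (Snord14a) was at 0.972 to 1.31 CPM in the Bloodlinc series, at 0.633 to 0.997 CPM in 3 others and at 0 counts in both hnRNPU hairpin libraries.

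The 2 U17 copies printed above moved in opposite directions. Snora73a was at 308, 163 and 79.0 CPM in the Bloodlinc series, at 0.387, 0.328 and 0.525 CPM in the vector and hnRNPU-series control libraries, and at 0 counts in both hnRNPU hairpin libraries (log2 difference between controls 9.40, SE 0.66, adjusted p = 3.22e-33). Snora73b was at 29.5, 12.8 and 18.9 CPM in the Bloodlinc series and at 67.9, 73.8, 300.2, 237 and 186 CPM in the others (log2 difference -2.28, SE 0.62, adjusted p = 0.00746). A further relative within Rpsa, Gm26448, followed Snora73b with 13.0, 6.36 and 5.19 CPM against 38.7 to 106 CPM (log2 difference -2.25, adjusted p = 0.00654). Neither decrease passed against the empty vector library alone, where the log2 differences were -1.20 for Snora73b and -1.57 for Gm26448. Summed over the 3, the family stood at 350, 182 and 103 CPM in the Bloodlinc series and at 107, 116, 399, 343 and 258 CPM in the others, so the groups overlapped for the sum but not for any of the 3 genes.

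**Figure D3:**
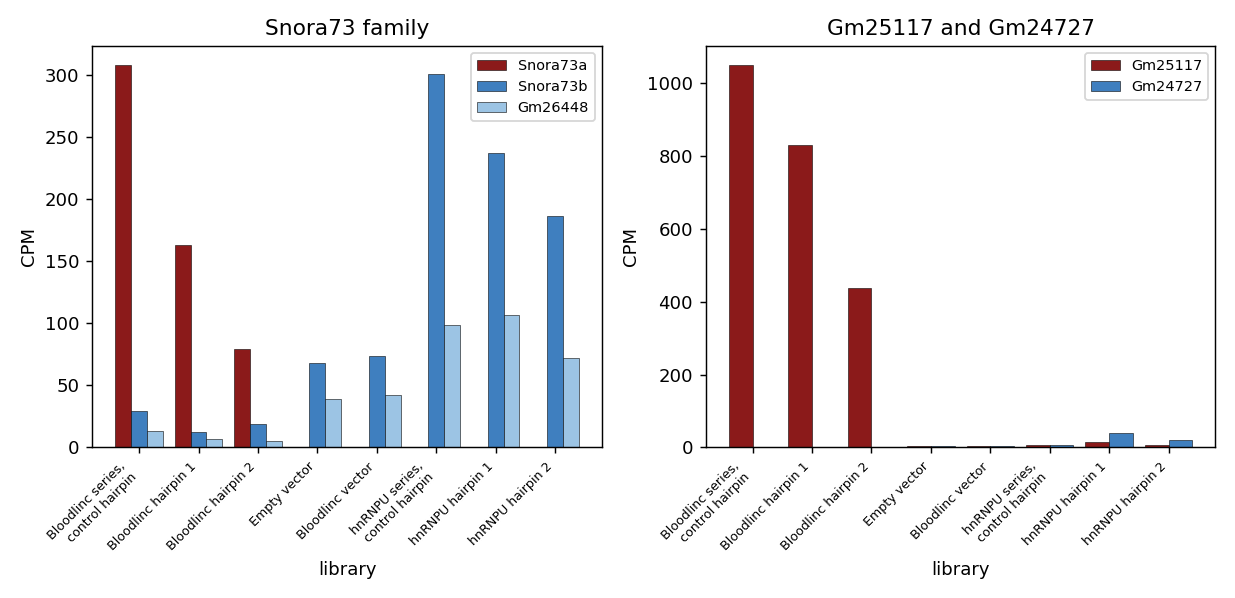
CPM (vertical axes, from 0) of the 3 Snora73 relatives (left) and of Gm25117 and Gm24727 (right) in each of the 8 libraries (horizontal axis), 1 bar per gene. Snora73a leads in the 3 Bloodlinc-series libraries (79.0 to 308 CPM) and Snora73b in the other 5 (67.9 to 300.2 CPM).

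Gm25117 and Gm24727 showed the same reversal. Gm25117 was at 1050, 830 and 439 CPM in the Bloodlinc series and at 3.41 to 14.8 CPM in the others (log2 difference 7.70, SE 0.66, adjusted p = 5.21e-24). Gm24727 was at 0.308, 0.175 and 0.0324 CPM in the series, from 6 counts down to 1, and at 5.13, 4.5, 5.56, 39.6 and 20.9 CPM in the others (log2 difference -4.10, SE 0.94, adjusted p = 0.000835). Members with and without a near copy were among those called, and the difference between the 2 shares was not tested. Of 78 tested members with a near copy (at least 80% identity over 80% of the shorter sequence), 12 rose and 5 fell (21.8%). Of 89 without one, 14 rose and 2 fell (18%), beside 7.95% of all genes called. Both tallies include all tested members, also those such as Gm25419 that met the count rule only through the Bloodlinc series, and so describe the set.

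Among C/D members, 3 methylation guides had the most counts behind their increase. Snord49a, which guides methylation of the large-subunit RNA, was at 448, 175 and 157 CPM in the Bloodlinc series and at 1.86, 1.73, 2.31, 2.96 and 1.97 CPM in the others (log2 difference 7.75, SE 0.62, adjusted p = 2.82e-27). Snord82, a guide for the small-subunit RNA, was at 155, 71.3 and 57.1 CPM against 0.653, 0.721, 0.210, 1.18 and 0.394 CPM (log2 difference 8.69, SE 0.65, adjusted p = 9.28e-30). Snord55 was at 22.4, 13.1 and 14.49 CPM against 1.06, 1.31, 1.71, 1.77 and 0 CPM (log2 difference 4.05, SE 0.69, adjusted p = 1.75e-06). For these 3 the groups were far apart in every library. The other C/D members that rose were Snord85 (log2 difference 3.94), Snord53 (2.88) and Snord107, a snoRNA of the imprinted Snrpn region. Snord107, which met the count rule only through the Bloodlinc series, had 12 counts in its control and 0 in both other controls, at least 16.3-fold higher against 3 counts over them.

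Levels of 25 of the 39 tested C/D members overlapped between the 2 sets of libraries. Of the 39, 12 were higher throughout the Bloodlinc series (30.8%) and 2 were lower (5.13%), beside 15.8% and 14.7% of all genes. As above, these counts describe the set. Snord17 was at 74.0, 66.3 and 55.4 CPM in the Bloodlinc series, 16 and 16.7 CPM in the vector libraries and 100.3, 109 and 60.3 CPM in the hnRNPU series, so that its groups overlapped and its contrast did not pass (adjusted p = 0.323). Snord15a was at 11.1, 7.01 and 10.1 CPM against 1.91 to 6.50 CPM, without overlap and without passing (log2 difference 1.68, adjusted p = 0.119). Snord100 and Snord104 were at 1.67 to 3.23 CPM in the series and 0.591 to 4.48 CPM outside it.

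**Figure D4:**
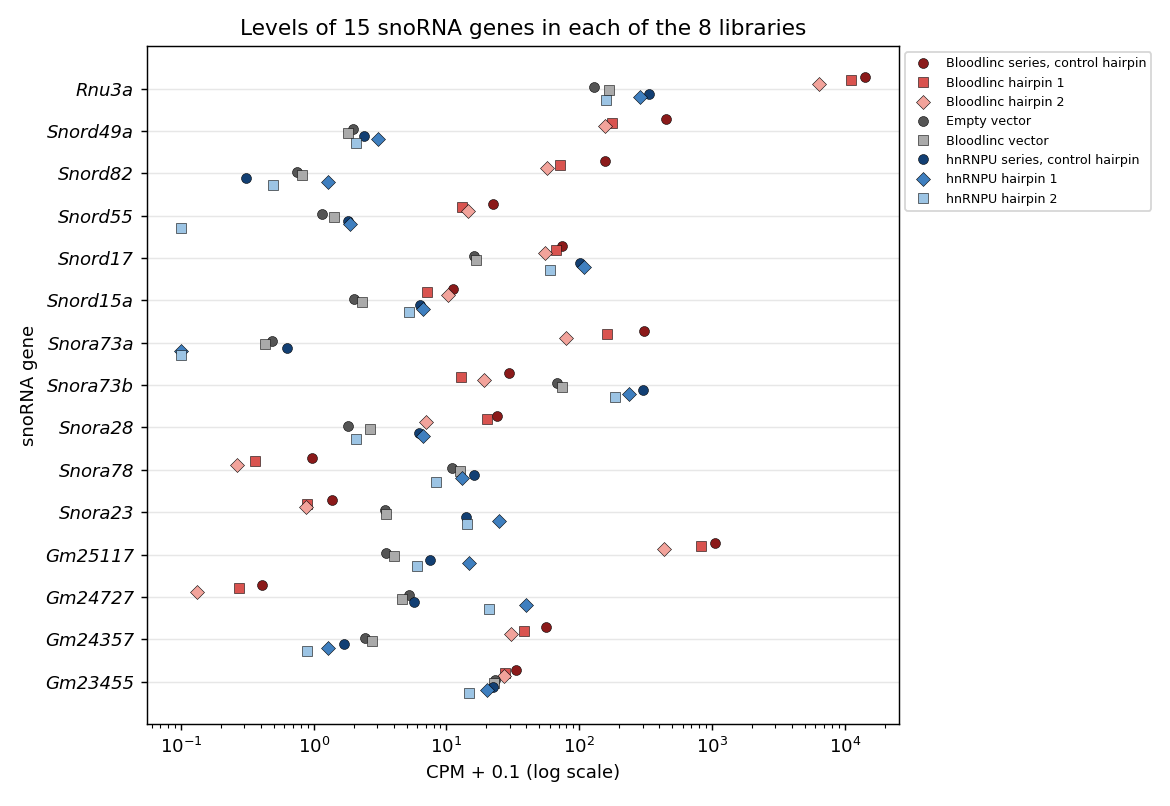
CPM + 0.1 on a log scale (horizontal axis) of 15 snoRNA genes (vertical axis) in each of the 8 libraries, 1 marker per library. Red markers, the 3 Bloodlinc-series libraries, lie apart to the right for Rnu3a, Snord49a, Snord82, Snora73a and Gm25117 and apart to the left for Snora73b, Snora78, Snora23 and Gm24727.

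Among H/ACA members, 5 differed between the controls, and the U17 copies made up 2 of them. Snora28, a pseudouridine guide for the small-subunit RNA, was at 24.0, 20.2 and 6.87 CPM in the Bloodlinc series and at 1.72, 2.53, 6.06, 6.50 and 1.97 CPM in the others (log2 difference 2.89, SE 0.65, adjusted p = 0.000620). Snora78 fell, with 0.871, 0.263 and 0.162 CPM against 10.8, 12.6, 15.9, 13.0 and 8.27 CPM (log2 difference -3.91, SE 0.88, adjusted p = 0.000649). Snora23 fell too, with 1.28, 0.789 and 0.778 CPM against 3.36, 3.41, 13.9, 24.8 and 14.2 CPM (log2 difference -2.41, adjusted p = 0.0456). The groups did not overlap for Snora28, Snora78 or Snora23. For Snora23 the empty vector level (3.36 CPM) lay nearer to the Bloodlinc-series control (1.28 CPM) than the hnRNPU-series control level did (13.9 CPM). The calls for Snora23, Snord107 and Mir1949 were lost without either hnRNPU hairpin library, with log2 differences of -2.43 and -2.41, 7.13 and 7.15, and -3.17 and -3.15. Snora74a, an H/ACA member abundant by level per length, was at 191, 112 and 75.2 CPM in the series and 77.1 to 134 CPM outside it, with overlap (adjusted p = 0.216).

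By length, of the 66 tested members under 100 bases, 12 rose and 0 fell, and of the 101 of 100 bases or more, 14 rose and 7 fell, beside 3.73% and 4.22% of all genes. Among the increases are members that met the count rule only through the Bloodlinc series, such as Gm25419 and Snord107, and so had to differ. The tallies by length therefore describe the set. The difference between the length classes was not tested. C/D members are short (median 79 bases) and H/ACA members are not (134.5 bases), so that length and class cannot be told apart here.

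The levels of host genes were read beside those of the snoRNAs. A same-strand host held 195 of the 209 members (93.3%), in 143 hosts, of which 176 members lay in protein-coding ones. Over 148 tested members with a tested host, Spearman's rho between the log2 difference of the member and that of its host was 0.032 for the control contrast, a description across genes that share hosts. Of 137 tested hosts, 3 rose and 7 fell in that contrast (7.3%), near the 7.95% of all genes that were called. Ncl, which encodes nucleolin and holds Snord82, was at 116, 133 and 91.1 CPM in the Bloodlinc series and at 121 to 1125 CPM in the others (log2 difference -2.12, adjusted p = 0.0263), whereas Snord82 rose. Snhg3, the non-coding host of both U17 copies, was at 6.30, 6.40 and 6.61 CPM against 6.50 to 29.8 CPM (log2 difference -2.14, adjusted p = 0.0273).

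Members of a single host differed among themselves. Within 2410006H16Rik, Snord49a rose as given above, whereas Snord49b was at 1.62 to 2.31 CPM in the Bloodlinc series and 1.18 to 2.27 CPM outside it, and Snord65 at 1.56 to 2.87 CPM and 0 to 2.10 CPM. Taf1d, a subunit gene of the RNA polymerase I factor SL1, held 8 members, the most of any host. Of these, Gm24357 rose (55.7, 38.5 and 30.3 CPM against 0.788 to 2.64 CPM, log2 difference 4.85, adjusted p = 4.34e-12), and the other 7 did not pass. Its neighbour Gm23455 was at 26.9 to 33.5 CPM in the series and at 14.6 to 23.2 CPM outside it (adjusted p = 0.603). Nop58, which encodes a core C/D protein, held 4 members, of which 0 passed and Snord11 was not tested.

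Genes of the snoRNA pathway were read in the control contrast, in which 54.6% of all genes had lower values and 4.22% fell. Of 4 C/D core proteins, 1 fell and 0 rose: fibrillarin (Fbl), the methyltransferase, at 2.46, 4.38 and 3.27 CPM in the Bloodlinc series and 3.55 to 21.2 CPM in the others (log2 difference -2.82, adjusted p = 0.00693). Of 4 H/ACA core proteins, Gar1 fell (log2 difference -2.67, adjusted p = 0.0207). Of 14 assembly factors, Nolc1, Naf1 and Tcof1 fell and Znhit3 rose, and of 28 proteins of the U3 processome 0 passed, with 23 of 28 lower. Of 17 genes of RNA polymerase I and the nucleolus, Ncl fell and 14 were lower. Of 15 genes for trimming and decay of small RNAs, 0 passed. Non-snoRNA small RNAs moved both ways: of 8 tested, Rnu12 rose (log2 difference 5.24), and Rmrp, Terc and Rny1 fell (-2.17, -2.67 and -5.49).

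Cell-type markers differed between the same libraries. Of 9 tested granulocyte markers, 9 fell in the contrast, and the 10 listed summed to 41.6 to 101 CPM in the Bloodlinc series and 952 to 9290 CPM in the others, with Mpo at 11.3 CPM in the Bloodlinc-series control and 201 and 389 CPM in the other controls. Of 11 erythroid markers, 3 rose, Slc4a1 and Alas2 among them, and the sums were 41287 to 84042 CPM and 23598 to 106304 CPM. Of 10 macrophage markers, 1 fell (Csf1r). In the Bloodlinc series 2 to 4 were at 0 counts, against 0, 0, 1, 5 and 3 in the other 5 libraries. The macrophage list summed to 4.25, 3.55 and 24.7 CPM in the series and 18.3 to 77.4 CPM in the others, with overlap. Csf1r was at 1.69, 1.93 and 22.5 CPM in the series and at 4.67 to 44.9 CPM in the others, so that it overlapped too. Of 5 tested hepatocyte markers, 0 passed, with sums of 1.0 CPM or less in the Bloodlinc series and 0.8 to 12.7 CPM in the others. The part of these differences in the snoRNA differences was not tested. In bulk libraries, fewer cells of a type and less RNA per cell cannot be told apart.

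Bloodlinc knockdown was compared with its own control hairpin, within the series that stood apart. No snoRNA passed: 0 of 167 tested members were called, where 0.124% of all genes were (19 of 15355), and DESeq2 also called 0. At an unadjusted p below 0.05, 1 member was higher and 6 were lower (4.19%), beside 3.99% of all genes, and with DESeq2 6 members were. The fitted values nonetheless lay mostly below the control. The median log2 fold change was -0.52 for C/D members (31 of 39 lower), -0.95 for H/ACA (21 of 22 lower) and -0.67 for others (82 of 106 lower), against 0.06 over all genes (44.6% lower). With both hairpins below the control were 25 C/D, 20 H/ACA and 72 other members. That is 117 of the 167 members, beside 4717 of all 15355 genes. The direction of these medians depended on the control library. With the hnRNPU-series control in its place they were 0.19 for C/D and 0.09 for H/ACA. With that control 27 of the 167 members were called, 14 higher and 13 lower. Of all 15355 genes, 258 were then called higher and 785 lower, 1043 in all.

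The 4 members with the smallest p follow, in a comparison that shares its control library with the contrast of controls. Snord49a stood at 448 CPM in the control and 166 ± 13.0 CPM (SD, n = 2) with the Bloodlinc hairpins, with the smallest adjusted p of any member (log2 fold change -1.43, SE 0.52, adjusted p = 0.672). Snora73a went from 308 CPM to 121 ± 59.5 CPM (log2 fold change -1.35, SE 0.52, adjusted p = 0.774). Snord82 went from 155 to 64.2 ± 9.99 CPM (log2 fold change -1.27, SE 0.52, adjusted p = 0.919), and Snora78 from 0.871 to 0.213 ± 0.0714 CPM (-2.04, SE 0.83, adjusted p = 0.919). U3 counts gave 14161 CPM in the control and 11063 and 6358 under the hairpins (log2 fold change -0.70, SE 0.68, adjusted p = 1). Both hairpins lay below the control for these 5 genes, and none of the 5 passed.

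Proteins that act on snoRNAs did not pass either. Of 4 C/D core proteins, 4 H/ACA core proteins, 14 assembly factors, 28 U3 processome proteins, 17 genes of RNA polymerase I and the nucleolus and 15 for trimming and decay, 0 rose and 0 fell on Bloodlinc knockdown. Nop58 stood at 158 CPM in the control and 137 and 103 CPM under the Bloodlinc hairpins, and Dkc1, which encodes dyskerin, at 79.7, 78.9 and 25.7 CPM. Of 137 tested hosts 0 passed, and member and host fold changes had a Spearman's rho of 0.171 over 148 members. Beside the 44.6% of all genes that were lower, 11 of the 11 erythroid markers were, and 0 passed. Of 9 granulocyte markers 8 were lower (median log2 fold change -1.28) and 0 passed. Of 10 macrophage markers 6 were lower and 4 higher, and of 5 tested hepatocyte markers 2 were lower and 3 higher, with 0 calls. Of 8 other small nuclear RNAs 7 were lower (median -0.68) and 0 passed. Their part in the snoRNA values was not tested.

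In the hnRNPU knockdown 0 of 167 members passed, where 0.879% of all genes did (135 of 15355), and DESeq2 called 0. At an unadjusted p below 0.05, 3 members were higher and 6 lower, 5.39% of members beside 9.89% of all genes. DESeq2 had 4. The 2 hairpin libraries detected 95 and 115 of the 209 members, against 204 in their control, and 45 tested members had 0 counts in both. A count of 0 in both allows up to 0.709 CPM, which is 3 counts over the 2 libraries. Fitted medians were -0.77 for C/D, -0.55 for H/ACA and -0.81 for others (-0.09 over all genes), and -0.20, -0.20 and 0.33 with members at 0 set at that limit, over the 36, 21 and 94 members that a limit allowed. Without hnRNPU hairpin 2, the C/D median was -4.96.

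None of the members with more counts passed. Snord17 was at 100.3 CPM in the control and 84.8 ± 34.7 CPM (SD, n = 2) with the hnRNPU hairpins (log2 fold change -0.25, SE 0.53, adjusted p = 0.916). Snora73b stood at 300.2 CPM in the control and 237 and 186 under the hairpins (log2 fold change -0.51, SE 0.54, adjusted p = 0.819), and Snora74a at 105, 134 and 79.6 CPM in the same order, a log2 fold change of 0.02 (adjusted p = 1). The smallest adjusted p was that of Gm24727, at 5.56 CPM in the control and 39.6 and 20.9 CPM with the hairpins (log2 fold change 2.43, SE 0.78, adjusted p = 0.128). Snora24, an H/ACA member within Snhg8, was at 5.46 CPM and then 0.591 and 1.58 CPM (log2 fold change -2.24, adjusted p = 0.355). Snora73a and Snord14a were at 0 counts with both hairpins, from 0.525 and 0.997 CPM in the control. For Snora73a the limit of 0.709 CPM exceeds the control level, and for Snord14a the level was at least 1.41-fold lower.

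Pathway proteins had 0 calls in the hnRNPU knockdown. Fitted values lay below the control for all 28 processome proteins and 16 of the 17 polymerase I and nucleolar genes. The same held for 13 of 14 assembly factors and 13 of 15 genes for trimming and decay, beside 53.4% of all genes. Nop58 was at 131 CPM in the control and 25.4 and 90.6 CPM with the hairpins (log2 fold change -1.17, SE 0.55, adjusted p = 0.457). Of 9 tested granulocyte markers 2 rose, where 0.58% of all genes did. The granulocyte list summed to 1623 CPM in the control and 9290 and 3454 CPM with the hairpins. Of 11 erythroid, 10 macrophage and 5 tested hepatocyte markers 0 rose and 0 fell. The part of these markers in the snoRNA values was not tested. The difference between the 2 knockdown effects passed for 0 members, where it did for 0.326% of all genes. DESeq2 called 0, and 4 members (2.40%) had an unadjusted p below 0.05, beside 4.11% of all genes (5 members with DESeq2). The smallest adjusted p was again that of Gm24727 (difference in log2 fold change 4.06, adjusted p = 0.219).

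**Figure D5:**
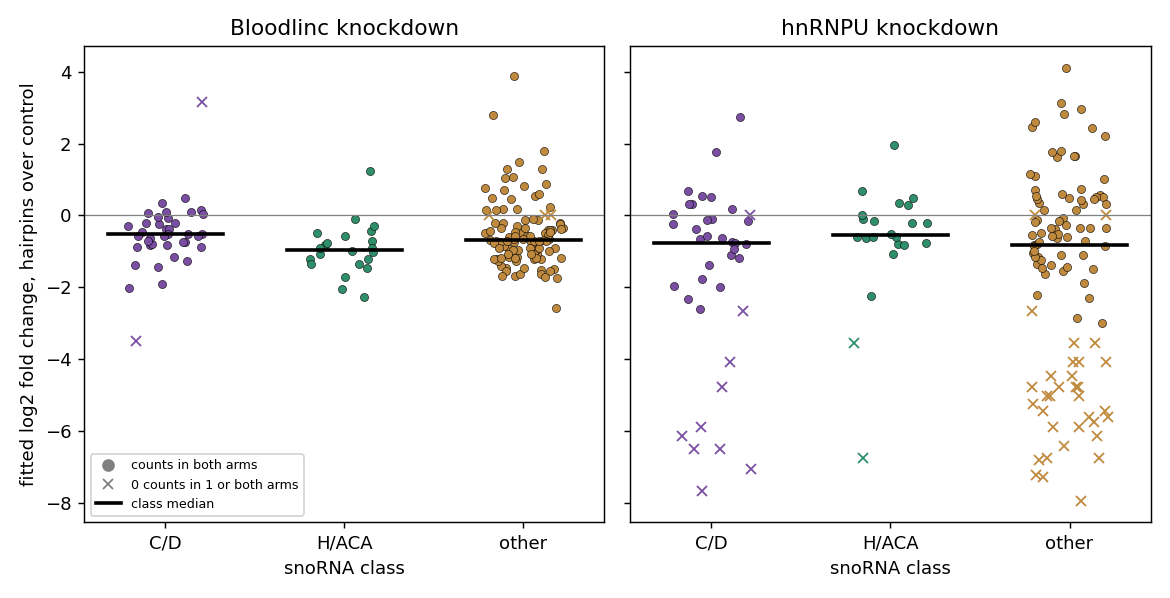
Fitted log2 fold change (vertical axis) of each tested member in the Bloodlinc (left) and hnRNPU (right) knockdown by class (horizontal axis); circles had counts in both arms, crosses had 0 counts in 1 or both arms, and bars are class medians. Crosses make up much of the lower range of the hnRNPU panel, where 45 tested members had 0 counts in both hairpin libraries.

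Bloodlinc overexpression was compared in 1 library per arm, without replicates, so that differences carry only a 95% exact binomial interval of the count ratio. The median log2 difference (prior count 2) was 0.14 over the 167 tested members, 0.14 for C/D and 0.14 for H/ACA, against 0.01 over all genes. Of the 167, 7 members were at least 2-fold higher, where 0.664% of genes were, and 1 was at least 2-fold lower, where 2.10% were. The members past 2-fold had few counts, such as Snord89 with 3 and 10 counts in the empty and Bloodlinc vector libraries and Snord98 with 8 and 21. U3 was the best measured member, with 5328 and 7640 counts (log2 difference 0.37, interval 0.32 to 0.42), followed by Snora73b (2805 and 3378 counts, 0.12, interval 0.05 to 0.19). Intervals cover counting error only, and the reads are not independent molecules.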

How the data were processed

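Total RNA, isolated with a miRNeasy kit, was depleted of ribosomal RNA and sequenced as strand-specific libraries (dUTP marking), per the labels' protocols. Alignment to mm9 used TopHat2 2.0.11 and counting used HTSeq, per the submitters' processing notes. The strand setting, the HTSeq version and the annotation release are not given in the sources used here, so reads of a snoRNA and of an overlapping gene may not be separable (55 members overlap another exon on their strand). The authors deposited raw counts, used here as deposited, with summary rows left out.

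Symbols, biotypes, positions and sequences came from GENCODE M21 (GRCm38), which matched 87.4% of the IDs. Levels are CPM scaled by TMM. edgeR 4.0.16 (R 4.3.3, limma 3.58.1) fitted all 8 libraries in 6 groups with quasi-likelihood F-tests on 15355 genes kept by filterByExpr, at a Benjamini-Hochberg adjusted p of 0.05. Only the hairpin pairs repeat (2 residual degrees of freedom, 397 prior degrees of freedom), so the fit takes the spread of every single control from those pairs. DESeq2 1.42.0 was the alternative test. SEs of log2 fold changes were derived from the F statistic. Near copies were found with BLAST 2.17.0. On simulated data for the Bloodlinc comparison, the fit called 0%, 16%, 62% and 94% of 50 genes each changed 2-, 4-, 8- and 16-fold, and for the hnRNPU comparison 0%, 12%, 56% and 86%. The changed genes had means above 5 CPM, and every gene was given the same spread. At a filter of 5 CPM in 2 libraries only 45 snoRNAs were left, so these rates do not describe most members.

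The members and lists were chosen with earlier results of these data known. Named members were the highest 8 C/D and 8 H/ACA per length, the cleavage snoRNAs, and the 4 highest and 4 lowest of each class per comparison at 5 CPM or more; those of the control contrast were chosen after its values were seen. A few items are not reported here.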

Additional observations from a re-analysis of the deposited data

Results flagged for a closer look

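Snord82 and Snora23 had values on opposite sides of their controls in the 2 knockdowns, none of which passed: both Bloodlinc hairpin libraries lay below their control and both hnRNPU hairpin libraries above theirs. For Snord82 the difference in log2 fold change was 3.03, and it did not pass the edgeR test of the difference (adjusted p = 0.870). It rests on 8 counts in the hnRNPU-series control and on 2 and 1 counts with the hnRNPU hairpins. For Snora23 the difference was 1.18 (adjusted p = 1), with 530 counts in the hnRNPU-series control and 42 and 36 with the hnRNPU hairpins.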

How the results depend on the processing

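No snoRNA was called in either knockdown, or in the difference between them, under any setting that kept each knockdown's own control. With the control hairpin of the other series in its place, 27 of 167 snoRNAs were called on Bloodlinc knockdown and 37 on hnRNPU knockdown. Over all genes, 1043 and 2340 of 15355 were called. The C/D medians were 0.19 and -1.98 and the H/ACA medians 0.0895 and -1.03. That control turned the direction of 16 named values: on Bloodlinc knockdown Snord118 (0.60), Snord13 (-2.36), Snord14a (0.19), Snord15a (0.46), Snord49a (6.16), Snord55 (3.01), Snord82 (8.22), Snora28 (1.15), Snora73a (7.84) and Rnu3a (4.70), and on hnRNPU knockdown Snord17 (0.19), Snord49a (-7.54), Snord82 (-7.74), Snora73b (2.84), Snora74a (-0.84) and Snora78 (3.59). With the 3 controls pooled, the same values turned, to 0.39, -1.58, 0.26, 0.43, 0.14, 0.72, 0.31, 0.35, 0.24 and 0.84 and to 0.42, -5.96, -6.15, 0.67, -0.22 and 0.19; 0 and 7 genes were called, the C/D medians were -0.27 and -1.83, and the H/ACA median on Bloodlinc knockdown was -0.26. Genes called numbered 19 and 135 in the 2 knockdowns, 5 on Bloodlinc knockdown with DESeq2, 0 and 8 at a filter of 5 CPM in 2 libraries, and 0 on Bloodlinc knockdown without both hnRNPU hairpin libraries. The 5 CPM filter gave an hnRNPU C/D median of 0.17, over only 6 members. Between controls it called 21 of the 45 snoRNAs it kept, against 33 of 167 in the main fit. The H/ACA median on hnRNPU knockdown (-0.55) was -0.24 with DESeq2, -0.39 with its size factors, -0.36 with upper quartile scaling, -0.40 without a filter, -0.37 at 5 CPM and -0.48 with protein-coding genes and snoRNAs alone. On hnRNPU knockdown Snord15a turned from -0.11 to 0.0415, 0.0415, 0.0782 and 0.0947 and Snora68 from -0.11 to 0.0331, 0.0338, 0.0735 and 0.0844 with DESeq2, its size factors, upper quartile scaling and the 5 CPM filter, and Snora74a to -0.0360 without a filter. Against the Bloodlinc-series control library, the Bloodlinc vector had median log2 differences of -0.65 (C/D) and -0.99 (H/ACA), and against the hnRNPU-series control -0.10 (H/ACA). The cause was not tested.

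Leaving out each hairpin library in turn gave 0 to 63 genes on Bloodlinc knockdown and 7 to 121 on hnRNPU knockdown, where the C/D median ran from -4.96 to -0.75 and the H/ACA median from -0.53 to -0.34. Named members that turned ran from -1.01 to 0.29 (Snord118), -0.22 to 0.35 (Snord13) and -0.25 to 0.16 (Snord14a) on Bloodlinc knockdown. On hnRNPU knockdown they ran from -1.63 to 0.10 (Snora28), -0.45 to 0.13 (Snora68), -0.41 to 0.35 (Snora74a), -1.14 to 1.44 (Snord13), -0.29 to 0.0602 (Snord15a), -0.75 to 0.12 (Snord17), -0.24 to 0.35 (Snord49a) and -8.62 to 0.0521 (Snord55). The calls between controls ran from 26 to 38 over the same removals, and all of their named members kept their direction under the settings run. No paired analysis was possible because the groups compared share fewer than 2 replicate numbers. The median over all genes moved by more than 0.1 with pooled controls (-0.13 on both knockdowns), and on hnRNPU knockdown by 0.19 with DESeq2, 0.12 with its size factors and 0.16 with upper quartile scaling. Low gene counts limit the hnRNPU comparison, where 3 counts are 1.02 and 1.15 CPM of gene counts in the 2 hairpin libraries. In these 2 libraries 89.7% and 86.6% of uniquely placed counts lay outside genes, against 21.8% in their control. This difference and the knockdown cannot be told apart.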

Other observations

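Rpsa, a gene of the small ribosomal subunit, held 3 members with unlike levels in the controls, of which 2 passed. Gm24044 was at 20.6, 18.9 and 12.4 CPM in the Bloodlinc series and at 2.96 to 5.04 CPM in the other 5 libraries (log2 difference 2.27, edgeR adjusted p = 0.0101). Gm26448 was lower in the series, as given above. Snora62 was at 7.23, 3.64 and 3.21 CPM against 0.591 to 1.89 CPM, without overlap and without passing (log2 difference 2, adjusted p = 0.110). Rpsa itself was at 221 to 325 CPM in the series and at 372 to 474 CPM in the others (log2 difference -0.38, adjusted p = 0.775).

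Scarna10 was the most abundant snoRNA by counts with the empty vector and with both hnRNPU hairpins, where it supplied 18.7%, 26.5% and 26.5% of the members' counts. It was at 680, 333 and 308 CPM in the Bloodlinc series and at 135, 146, 285, 470 and 308 CPM in the others, so that the groups overlapped, and it rose between the controls (log2 difference 1.79, SE 0.57, adjusted p = 0.0274). Among members within ribosomal protein genes, Gm26202 within Rpl17 rose too, with 13.9, 5.87 and 5.64 CPM against 0.394 to 2.36 CPM (log2 difference 4.15, adjusted p = 2.23e-05). Gm22422, within the tRNA methyltransferase subunit gene Trmt10c, fell, with 0.308, 0.307 and 0.227 CPM against 3.99 to 6.68 CPM (log2 difference -3.97, adjusted p = 0.00722).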
